A study of Homo sapiens with 6 samples.

Results

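The genes of HLA class I antigen presentation were followed after knockdown of gankyrin in SW480 cells, a line derived from a human colon carcinoma. The members are the class I heavy chain genes HLA-B, HLA-C, HLA-E, HLA-F and HLA-G, the light chain gene B2M, the peptide transporter genes TAP1 and TAP2, and the tapasin gene TAPBP. They were chosen by name, as every probe set that the array annotation pairs with 1 of these 9 genes. This gave 28 of the 54613 probe sets other than the manufacturer's controls, 17 for heavy chains and 11 for B2M, TAP1, TAP2 and TAPBP. All cells carried an shRNA for 4 days, either a non-targeting one (control, n = 3 arrays) or one against gankyrin (knockdown, n = 3 arrays), and the labels list no further treatment. How many hairpins were used, and whether the replicates came from separate cultures, is not given in the sources used here. All p-values therefore rest on array-to-array spread alone, and that spread may be technical.

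A class I molecule is a membrane-bound heavy chain paired with beta-2-microglobulin and a short peptide, which it shows to cytotoxic T cells. Peptides come largely from the proteasome, whose regulatory particle gankyrin helps to assemble. The TAP1/TAP2 transporter carries them into the endoplasmic reticulum, where tapasin holds empty class I molecules at the transporter until a peptide is bound. HLA-B and HLA-C are classical, highly polymorphic heavy chains. HLA-E, HLA-F and HLA-G vary little between people, and HLA-E and HLA-G are ligands of inhibitory receptors on natural killer cells and other leukocytes. In epithelial cells class I transcription is driven by NF-kB, by interferon regulatory factors and by an assembly of factors around NLRC5.

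After knockdown the heavy chain genes were lower and B2M was nearly level. Each of the 17 heavy chain probe sets had a lower mean in the knockdown arrays, with differences of -0.75 to -0.12 on the log2 scale, and 9 of the 17 fell. B2M changed by -0.06 ± 0.03 (log2 ± SE) on its brightest probe set, and 0 of the 9 tested probe sets for B2M, TAP1, TAP2 and TAPBP passed. Here and below, "rose" and "fell" are kept for an adjusted p under 0.05 in limma's moderated test, with Benjamini-Hochberg adjustment over all 32759 probe sets that passed a filter on low signals. Of the 28 member probe sets 26 passed that filter, 9 fell and 0 rose (13 lower and 0 higher at an unadjusted p under 0.05 in limma). Over all probe sets tested, 6.54% were called lower and 4.05% higher. The shares of all probe sets and genes at an unadjusted p under 0.05 were not computed. The unadjusted counts here and below therefore have no share to be read against. The median change of the 28 member probe sets was -0.24 and that of all tested probe sets was -0.003, both in log2 units. In RNA from bulk cultures, fewer cells making a transcript and less transcript per cell cannot be told apart.

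**Figure D1:**
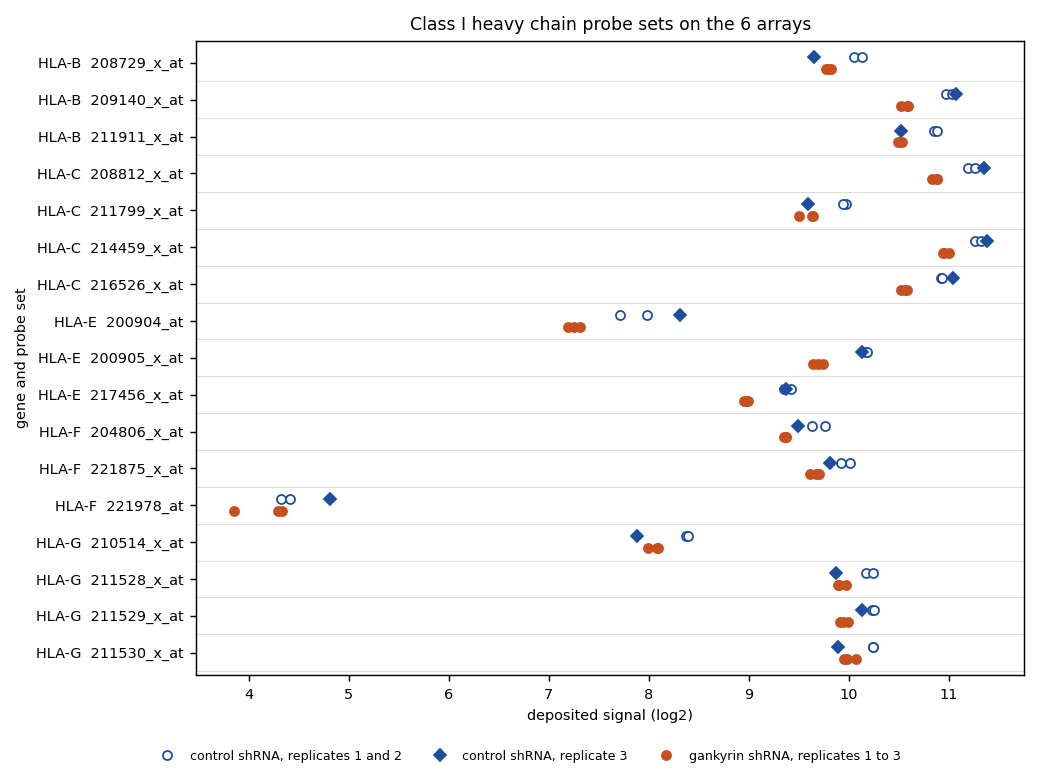
Deposited log2 signal (horizontal axis) of the 17 probe sets of the class I heavy chain genes (rows), with open circles for control replicates 1 and 2, diamonds for control replicate 3 and filled circles for the 3 knockdown arrays. Knockdown arrays lie below control replicates 1 and 2 in every row except the dim HLA-F probe set 221978_at, where knockdown replicate 3 at 4.33 lies above control replicate 1 at 4.32, and the control replicate 3 diamond falls among or below the knockdown arrays in 6 rows.

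One array stood apart. The manufacturer's control probe sets for ACTB, at the 5' and 3' ends of the transcript, differed by 1.82 log2 units in control replicate 3 and by 0.43 to 0.53 on the 5 other arrays. For GAPDH the same difference was 0.56 in control replicate 3 and -0.11 to 0.00 on the others. Of the 26 tested member probe sets, 8 were at least 0.2 below both other controls in control replicate 3 and 7 were at least 0.2 above both. Control replicates 1 and 2 each had at most 1 of either kind, as did each knockdown array against the other knockdown arrays. Over all tested probe sets the shares were 14.8% and 19.7% in control replicate 3. They were 3.26% to 6.13% in control replicates 1 and 2. The gap of 0.2 was chosen after the values were seen. The counts of called probe sets and genes are therefore also given without this array. Its part in the differences between probe sets was not tested. Without it 16 of the 17 heavy chain probe sets fell, against 12% of all probe sets called lower and 9.73% called higher, and 1 of the 9 others fell.

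**Figure D2:**
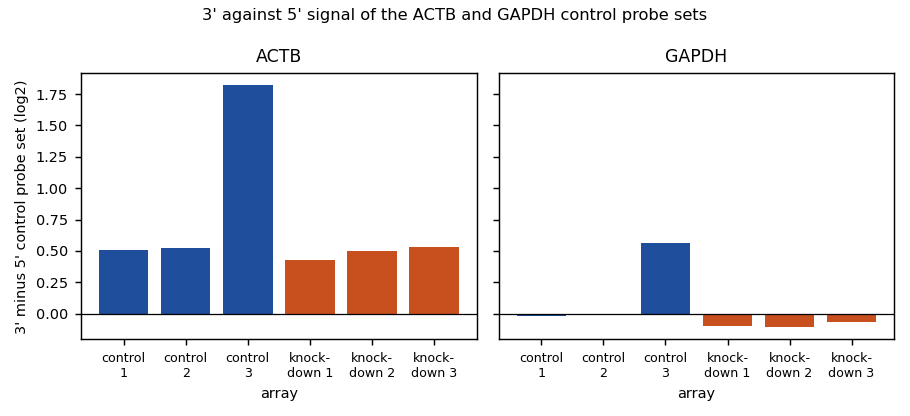
Bars give, for each of the 6 arrays, the log2 signal of the 3' control probe set minus that of the 5' control probe set, for ACTB on the left and GAPDH on the right, in blue for control and orange for knockdown arrays. Control replicate 3 reaches 1.82 for ACTB and 0.56 for GAPDH, above every other array.

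The knockdown itself was plain. PSMD10, the gankyrin gene, was at 10.19, 10.23 and 10.15 in control and at 6.58, 6.47 and 6.30 in knockdown arrays, a 13.4-fold fall (limma, adjusted p = 6.81e-09 over 14199 genes). NFIL3, which the series design names once as the target, was at 9.21, 9.32 and 9.47 in control and 9.12, 9.06 and 9.03 in knockdown arrays, and fell by 0.26 in the same fit (adjusted p = 0.0281). That call was lost when control replicate 2 or knockdown replicate 1, 2 or 3 was left out (adjusted p = 0.0630, 0.0661, 0.0967 and 0.112). Of 8 colon epithelial markers 7 lay above 4.92, the level below which 95% of 135 olfactory receptor probe sets lay, with EPCAM at 12.20 and CDX2 below it at 4.16. Their summed linear signal was 21003 to 21439 in control and 20256 to 20690 in knockdown arrays, with CDH1 and KRT19 lower and VIL1 higher in every knockdown array than in every control array. Of 8 leukocyte markers found 2 lay above it, CD3E at 4.97 and ITGAM at 5.72, and PTPRC was at 2.65. Their summed linear signal was 156 to 169 in control and 180 to 192 in knockdown arrays. Of 8 fibroblast markers 1 lay above it, COL1A1 at 7.12, with sums of 209 to 264 in control and 274 to 282 in knockdown arrays. The manufacturer's probe sets for small-subunit ribosomal RNA were 0.79 to 1.29 higher on the log2 scale after knockdown. The part of these marker and rRNA differences in the class I values was not tested.

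The sequences before the start sites of 3 heavy chain genes and B2M are shown because the heavy chains were lower and B2M was not called. They are the 250 bases before the annotated start, 5' to 3', from RefSeq on GRCh38.p14, where 8 of the 9 members had an entry, all but HLA-E. Capitals mark matches on either strand to CCAAT (the box read by NF-Y), to TGACG (the core of a CREB or ATF site), to the core of the interferon-stimulated response element (ISRE, a pair of GAAA with any 2 bases between them), to GAANNGAAA (the same letters with 1 A fewer) or to the NF-kB consensus, and neighbouring or overlapping matches run together. They are reference sequences, and the alleles of SW480 were not analysed here.
HLA-B, chr6:31357180-31357429, minus strand: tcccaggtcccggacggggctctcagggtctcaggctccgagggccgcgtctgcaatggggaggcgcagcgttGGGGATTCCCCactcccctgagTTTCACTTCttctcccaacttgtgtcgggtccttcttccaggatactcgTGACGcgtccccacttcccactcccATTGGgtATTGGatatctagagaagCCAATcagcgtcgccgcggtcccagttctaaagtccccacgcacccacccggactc
HLA-C, chr6:31272093-31272342, minus strand: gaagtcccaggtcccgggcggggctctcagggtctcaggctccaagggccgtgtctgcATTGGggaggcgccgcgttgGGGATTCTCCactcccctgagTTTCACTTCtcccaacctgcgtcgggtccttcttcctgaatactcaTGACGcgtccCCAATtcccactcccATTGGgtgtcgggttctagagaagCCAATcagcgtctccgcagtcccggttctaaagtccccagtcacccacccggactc
HLA-F, chr6:29723184-29723433, plus strand: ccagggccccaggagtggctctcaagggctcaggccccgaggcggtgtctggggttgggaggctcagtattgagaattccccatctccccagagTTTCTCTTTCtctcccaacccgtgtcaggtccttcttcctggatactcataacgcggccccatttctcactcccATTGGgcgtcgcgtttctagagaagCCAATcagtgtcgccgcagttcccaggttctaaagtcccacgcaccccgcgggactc
B2M, chr15:44711267-44711516, plus strand: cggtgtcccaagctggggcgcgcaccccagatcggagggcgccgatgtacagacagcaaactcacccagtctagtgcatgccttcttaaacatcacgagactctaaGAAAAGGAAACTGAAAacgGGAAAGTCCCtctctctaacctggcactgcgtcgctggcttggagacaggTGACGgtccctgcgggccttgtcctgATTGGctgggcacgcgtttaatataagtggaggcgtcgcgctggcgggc

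The HLA-B and HLA-C windows were 89.0% identical over their alignment, and the HLA-F window was 80.4% and 78.2% identical to them. The B2M window was 42.7% to 46.6% identical to these heavy chain windows. HLA-B held an NF-kB match beginning 177 bases before the start, GAANNGAAA at 155 and TGACG at 106. HLA-C held the same order at 172, 151 and 105. CCAAT lay at 81, 74 and 56 bases before the start in HLA-B and at 192, 95, 80 and 56 in HLA-C. HLA-F held an ISRE core at 156 and CCAAT at 82 and 57 bases before the start, with no match to the NF-kB consensus or TGACG. B2M, which lies on chromosome 15 and not in the HLA region of chromosome 6, held overlapping ISRE cores at 144 and 138, an NF-kB match at 125, TGACG at 75 and CCAAT at 49. The HLA-B, HLA-C, HLA-F and B2M windows thus each held a match to the ISRE core or its shorter form. No match to the ISRE core, GAANNGAAA, TGACG or the NF-kB consensus was found in the 3 HLA-G windows, which are not printed. Of those windows 1 held CCAAT at 56. Over all 35116 windows of that length in the table, 32.0% held CCAAT, 21.2% TGACG, 3.02% the ISRE core, 6.56% GAANNGAAA and 5.21% the NF-kB consensus. Among the other members' windows, the NF-kB consensus matched for TAPBP at 56 and for 1 of the 2 TAP1 windows at 72. The ISRE core matched for TAPBP at 20 and 14, for 1 of the 2 TAP1 windows at 134 and 128 and for TAP2 at 58, and GAANNGAAA for TAP2 at 63. None of these matches is a measured binding site.

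The classical heavy chains HLA-B and HLA-C present peptides to CD8 T cells and engage killer-cell receptors. On the brightest HLA-B probe set, 209140_x_at, control arrays 1, 2 and 3 read 10.97, 11.03 and 11.07 on the log2 scale and knockdown arrays 1, 2 and 3 read 10.59, 10.58 and 10.52. The groups did not overlap, and HLA-B fell 1.38-fold on it (log2 difference -0.46 ± 0.04 SE, limma adjusted p = 0.00234). The other HLA-B probe sets, 208729_x_at and 211911_x_at, had differences of -0.15 ± 0.12 and -0.24 ± 0.09 and did not pass (limma adjusted p = 0.454 and 0.145). On both, control replicate 3 was the low control, at 9.65 against 10.05 and 10.13 on the first and at 10.52 against 10.85 and 10.88 on the second. Without that array they fell by 0.29 and 0.36, at limma adjusted p-values of 8.03e-04 and 7.15e-05.

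HLA-C had 4 probe sets, of which 3 fell by similar amounts. On the brightest, 214459_x_at, controls were at 11.26, 11.32 and 11.38 and knockdown arrays at 10.94, 10.95 and 11.00, with no overlap. Its difference was -0.36 ± 0.04 (log2 ± SE, limma adjusted p = 0.00513), and those of 208812_x_at and 216526_x_at were -0.40 ± 0.05 and -0.41 ± 0.05 (0.00504 and 0.00410). The remaining set, 211799_x_at, read 9.97, 9.94 and 9.59 in control and 9.50, 9.63 and 9.64 in knockdown arrays. Its control replicate 3 lay among the knockdown arrays, and it did not pass (-0.24 ± 0.11, limma adjusted p = 0.184). Without control replicate 3 it fell by 0.37 (limma adjusted p = 4.16e-04), and the 3 others still fell.

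HLA-E, which displays leader peptides of other class I chains to the NKG2A receptor of natural killer cells, fell on all 3 of its probe sets. On 200905_x_at controls read 10.17, 10.18 and 10.13 and knockdown arrays 9.74, 9.69 and 9.64, a 1.39-fold fall (-0.47 ± 0.05, limma adjusted p = 0.00282). On 217456_x_at it fell by 0.41 (limma adjusted p = 0.00572). The third, 200904_at, is the single heavy chain probe set above the low-signal level whose name carries no cross-match ending. It read 7.71, 7.98 and 8.31 in control and 7.19, 7.25 and 7.31 in knockdown arrays. The groups were apart on it, but the controls were spread over more than the gap between the groups. The difference on 200904_at was -0.75 ± 0.14, or 1.68-fold (limma adjusted p = 0.0209). Leaving out control replicate 2 ended the call (adjusted p = 0.0536), as did leaving out knockdown replicate 1, 2 or 3 (0.0912, 0.0895 and 0.0827), and it passed without control replicate 3 at -0.60 ± 0.08 (adjusted p = 2.99e-04).

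HLA-F, a heavy chain found largely inside cells and on activated lymphocytes, had 1 call among 3 probe sets. On 221875_x_at controls were at 9.92, 10.01 and 9.81 and knockdown arrays at 9.61, 9.70 and 9.67. The groups did not overlap, and the difference of -0.25 ± 0.06 lay just inside the threshold (limma adjusted p = 0.0475). Leaving out control replicate 1 or 2 or knockdown replicate 1, 2 or 3 ended that call (adjusted p = 0.103, 0.111, 0.166, 0.127 and 0.148), whereas without control replicate 3 the set fell by 0.31 (adjusted p = 9.68e-04). On 204806_x_at the groups were also apart, and the difference was -0.26 ± 0.07 (adjusted p = 0.0638, and 7.09e-04 without control replicate 3). The third set, 221978_at, read 4.32, 4.41 and 4.81 in control and 3.85, 4.29 and 4.33 in knockdown arrays. These values lie in the range of the olfactory receptor probe sets, the groups overlapped, and it passed neither with all arrays nor without control replicate 3 (adjusted p = 0.239 and 0.378).

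HLA-G is best known from the placenta, where it is made by trophoblast cells. The 4 probe sets paired with it read between 7.88 and 10.25 on these arrays, all end in _x_at, and signal from other class I transcripts on them cannot be told apart from that of HLA-G. The set 211529_x_at, at 10.23, 10.25 and 10.13 in control and 9.91, 9.99 and 9.94 in knockdown arrays, fell by 0.26 (limma adjusted p = 0.0249). That call was lost without control replicate 1 or 2 (adjusted p = 0.0695 and 0.0735) and without knockdown replicate 1, 2 or 3 (0.106, 0.0783 and 0.105). The others had differences of -0.17 to -0.12 and overlapping groups, with control replicate 3 lowest of the controls on each. Without that array all 4 fell, with differences of -0.33 to -0.24 (limma adjusted p of at most 0.00356).

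Cross-matching probes limit how far the heavy chain genes can be told apart. Affymetrix gives the ending _x_at to probe sets in which some probes match other transcripts as well, and 15 of the 17 heavy chain probe sets carry it. Of those 15, 8 fell. Sets paired with different genes may therefore report some of the same transcripts, and they are not independent measurements. Of the 2 heavy chain sets without that ending, HLA-E 200904_at fell and the dim HLA-F 221978_at did not pass. A set of 6 probe sets fell with all arrays and under each of the 13 alternatives run on probe sets, among them each of the 6 single-array omissions. The share of all probe sets that fell under every alternative was not computed. Without knockdown replicate 3 alone, 1.32% of all tested probe sets were called lower. Over the 26 tested member probe sets the groups did not overlap on 14, 10 of them heavy chains, and all 14 were lower in knockdown arrays. Over all tested probe sets 20% were lower and 15.5% higher without overlap, 35.5% in all. The 6 steady sets were 209140_x_at for HLA-B, 208812_x_at, 214459_x_at and 216526_x_at for HLA-C, and 200905_x_at and 217456_x_at for HLA-E.

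**Figure D3:**
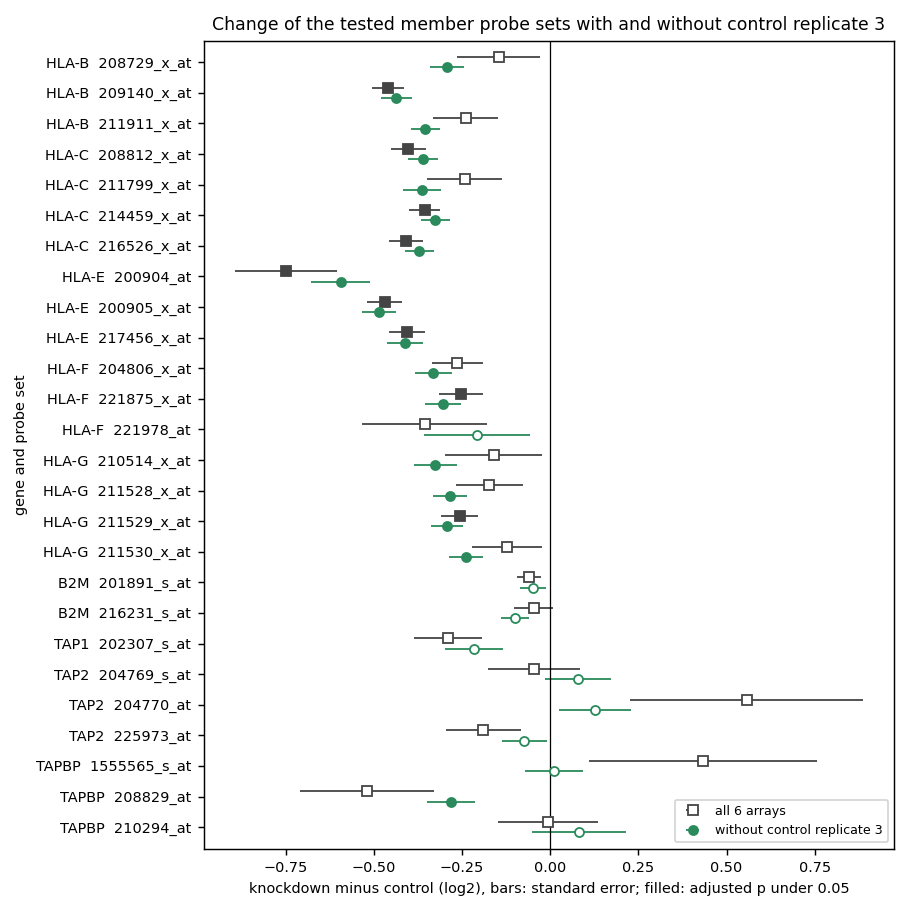
Knockdown minus control in log2 units (horizontal axis) with its standard error for the 26 tested member probe sets (rows), from all 6 arrays (squares) and without control replicate 3 (circles), filled where the limma adjusted p is under 0.05. Filled symbols go from 9 squares to 17 circles, 16 of them heavy chains, and the squares farthest to the right, TAP2 204770_at at 0.56 and TAPBP 1555565_s_at at 0.43, move to 0.13 and 0.01.

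B2M encodes the light chain that every class I heavy chain needs to reach the cell surface. Its signal was among the highest on the arrays. On 201891_s_at it read 12.10, 12.12 and 12.14 in control and 12.01, 12.09 and 12.08 in knockdown arrays. The knockdown values were just below the control values, and the difference of -0.06 ± 0.03 had a 95% interval of -0.14 to 0.02 (limma adjusted p = 0.299). On 216231_s_at the values were 11.95, 12.05 and 11.84 against 11.94, 11.87 and 11.89, and the groups overlapped (-0.05, interval -0.18 to 0.08, adjusted p = 0.619). Without control replicate 3 the differences were -0.05 and -0.10, and neither passed (adjusted p = 0.399 and 0.104). The third B2M set, 232311_at, lay below the filter, at 3.08 to 3.84. B2M thus had 0 calls on 2 tested probe sets in limma, with 0 at an unadjusted p under 0.05.

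The transporter genes TAP1 and TAP2 lie beside the immunoproteasome genes in the class II part of the HLA region. TAP1 had 1 probe set, 202307_s_at, at 6.69, 6.71 and 6.92 in control and 6.48, 6.40 and 6.57 in knockdown arrays. The groups were apart, but the difference of -0.29 ± 0.10 did not pass with all arrays (limma adjusted p = 0.104) or without control replicate 3 (-0.22 ± 0.08, adjusted p = 0.0815). TAP2 had 4 probe sets, of which 208428_at lay below the filter, at 2.50 to 2.75. On the brightest, 225973_at, controls read 7.48, 7.50 and 7.84 and knockdown arrays 7.41, 7.42 and 7.42. That difference of -0.19 ± 0.11 did not pass (adjusted p = 0.295), and without control replicate 3 it was -0.07. The 2 other TAP2 sets went opposite ways in control replicate 3. On 204770_at it read 4.29 against 5.71 and 5.45 in the other controls, and on 204769_s_at it read 6.41 against 6.02 and 6.05. Their differences were 0.56 ± 0.33 and -0.05 ± 0.13, and neither passed (adjusted p = 0.317 and 0.846).

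TAPBP encodes tapasin, the chaperone that bridges class I molecules and the transporter, and its probe sets disagreed. The brightest, 208829_at, read 8.30, 8.43 and 9.08 in control and 8.12, 8.14 and 7.99 in knockdown arrays, with no overlap. Its difference of -0.52 ± 0.19 missed the threshold over all probe sets (limma adjusted p = 0.125). Without control replicate 3 the set fell, with a smaller difference of -0.28 ± 0.07 (adjusted p = 0.0106). On 1555565_s_at control replicate 3 was the low value instead, at 5.82 against 6.98 and 7.20, with knockdown arrays at 7.10, 7.16 and 7.04. That difference was 0.43 ± 0.32 with all arrays and 0.01 ± 0.08 without control replicate 3. The dim set 210294_at had overlapping groups and a difference of -0.01. Among the 9 tested sets of B2M, TAP1, TAP2 and TAPBP, 0 passed in limma in either direction, and 2 were lower and 0 higher at an unadjusted p under 0.05.

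**Figure D4:**
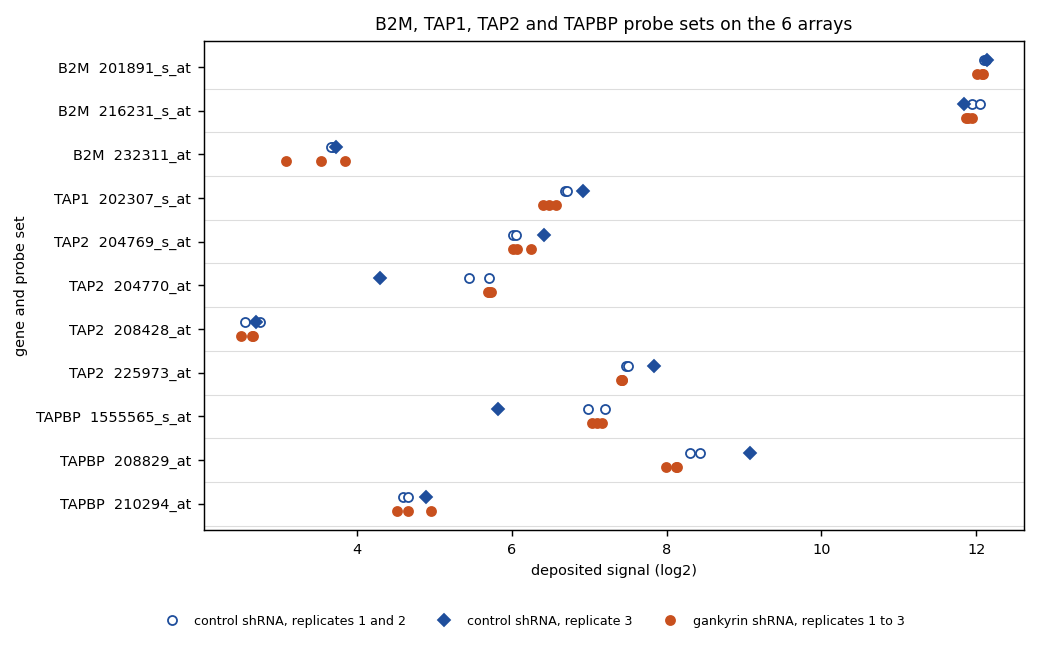
Deposited log2 signal (horizontal axis) of the 11 probe sets of B2M, TAP1, TAP2 and TAPBP (rows), with open circles for control replicates 1 and 2, diamonds for control replicate 3 and filled circles for the 3 knockdown arrays. The diamond lies far to the left on TAP2 204770_at, at 4.29, and TAPBP 1555565_s_at, at 5.82, and far to the right on TAPBP 208829_at, at 9.08.

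A second fit counted each gene once, by its brightest probe set, with adjustment over 14199 genes. In it 6 of the 9 member genes fell and 0 rose (0 higher at an unadjusted p under 0.05 in limma), against 14.3% of all genes called lower and 8.13% higher (22.5% in all). Without control replicate 3 there were also 6 lower and 0 higher, against 16.6% and 12.7% of all genes. With all arrays the groups did not overlap for any of the 9, all of them lower, against 24.6% of all genes lower without overlap and 40.3% in either direction. The 6 were HLA-B, HLA-C, HLA-E, HLA-F, HLA-G and TAPBP, and TAP1 lay at the threshold (adjusted p = 0.0509). Each heavy chain gene was represented by an _x_at set, and these sets may report some of the same transcripts. The heavy chain calls are therefore not independent, and the count of 6 cannot be read as separate results for each gene. The median of the 9 differences was -0.29, beside -0.02 over all genes. The calls of HLA-F and TAPBP were the least steady. HLA-F missed the threshold without control replicate 2 or knockdown replicate 1 or 3 (limma adjusted p = 0.0632, 0.0802 and 0.0629). TAPBP missed it without control replicate 2 or knockdown replicate 1, 2 or 3 (adjusted p = 0.0517, 0.118, 0.112 and 0.161). When the probe sets of a gene were averaged, TAPBP and HLA-G were at -0.03 and -0.18 and did not pass (adjusted p = 0.829 and 0.208), and TAP2 turned to 0.11 (0.386).

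Whether members changed by different amounts was examined for all 36 pairs of member genes, as the difference of their log2 signals on each array. For all 5 pairs of a heavy chain with B2M this quantity was lower in every knockdown array than in every control array. Between the groups HLA-E minus B2M differed by -0.41, HLA-B minus B2M by -0.40, HLA-C minus B2M by -0.30, HLA-G minus B2M by -0.20 and HLA-F minus B2M by -0.19. Among the heavy chains the groups were apart in 5 of 10 pairs, and HLA-E minus HLA-F differed by -0.22. In all, 14 of the 36 pairs did not overlap, while 42.8% of all pairs of the 14199 genes did not, so the count over the members is near that share. With 3 arrays a side, exact permutation (two-sided) gives p = 0.1 at best, or 0.257 after Benjamini-Hochberg adjustment over the 36 pairs, so this test cannot pass for any pair, and no other test of the pairs was run. Leaving out any array can only keep or raise such a count. It was 25 of 36 without control replicate 3, against 52.6% of all pairs of genes.

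The same fit was read for 5 other lists of the pathway, against the 14.3% of all genes called lower and 8.13% called higher (16.6% and 12.7% without control replicate 3). Of 16 genes that supply peptides or help to load them 15 were measured, 2 fell and 0 rose in limma (5 lower and 0 higher at an unadjusted p under 0.05), which is near the share over all genes. Their median was -0.10 beside -0.02 over all genes. The counts were 3 lower and 1 higher without control replicate 3. There were 4 lower without control replicate 1, 1 without knockdown replicate 2, and 0 without control replicate 2 or knockdown replicate 1 or 3. Calls were also fewer over all genes, with 11.4% lower without control replicate 2 and 7.54% to 7.96% without 1 knockdown array. HM13, the signal peptide peptidase that helps to release the leader peptides shown by HLA-E, fell by 0.31 (adjusted p = 0.0197), and PSMB8, an immunoproteasome subunit, fell by 0.27 (0.0396). HM13 missed the threshold without control replicate 2 or knockdown replicate 1 or 3 (0.0653, 0.0825 and 0.0957), and was at -0.10 with its probe sets averaged. PSMB8 missed it without control replicate 2 or knockdown replicate 1, 2 or 3 (0.106, 0.0966, 0.126 and 0.134). PSMB9, the immunoproteasome gene beside TAP1, was at -0.57 ± 0.20 and did not pass (adjusted p = 0.0660, and 0.0458 without control replicate 1). Control replicate 3 was its highest array, and without it the difference was -0.32 (adjusted p = 0.113). The general chaperones of the loading step, CALR and PDIA3, had differences of 0.02 and 0.04 and did not pass.

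**Figure D5:**
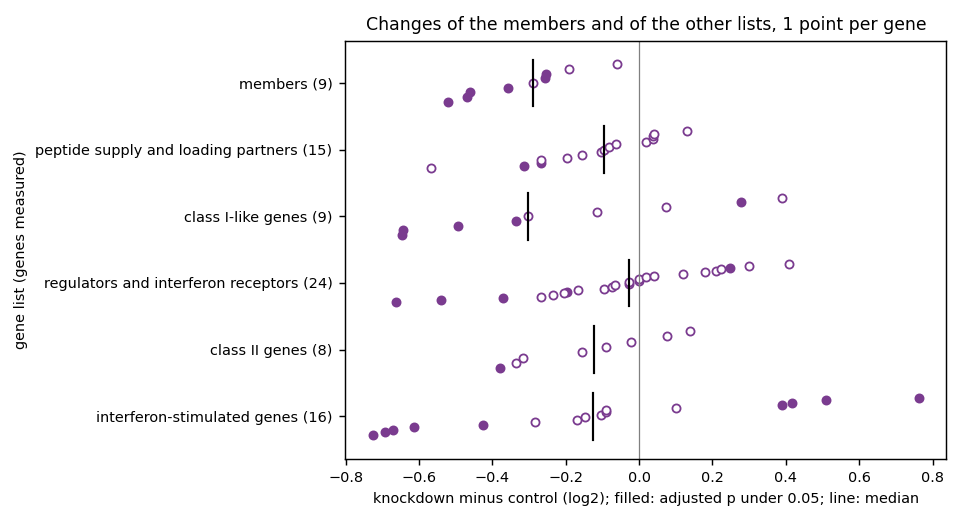
Knockdown minus control in log2 units (horizontal axis) for each measured gene of the 9 members and of 5 other lists (rows), with 1 point per gene, filled where the limma adjusted p is under 0.05, and a line at each list's median. The medians are -0.29 for the members, -0.30 for class I-like genes and between -0.13 and -0.03 for the other 4 lists.

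Class I-like genes encode stress ligands of natural killer cells and other proteins of the same fold. Of 14 listed 9 were measured, 4 fell and 1 rose, against 14.3% and 8.13% of all genes, with a median of -0.30. There were 5 lower and 1 higher without control replicate 3. The falls were in ULBP2 and MICB, ligands of the activating receptor NKG2D, at -0.64 ± 0.07 and -0.65 ± 0.15 (limma adjusted p = 3.53e-04 and 0.0126), in MICA, a further NKG2D ligand, at -0.34 ± 0.08 (0.0146), and in PROCR, the protein C receptor, at -0.49 ± 0.06 (5.79e-04). MICB missed the threshold without knockdown replicate 1 (0.0636), and MICA without control replicate 2 or knockdown replicate 2 or 3 (0.0557, 0.0656 and 0.0676). HFE, which regulates iron uptake, rose by 0.28 (0.0391). HFE missed the threshold in 5 of the 6 single-array omissions, all but that of control replicate 3 (adjusted p of 0.0573 to 0.137). ULBP1 was at 0.39 ± 0.24 and did not pass (0.287). Control replicate 3 read 3.73 on it against 4.77 and 4.78 in the other controls, and without that array the difference was 0.042 (0.831). Of 12 class II genes 8 were measured, 1 fell and 0 rose (3 lower and 0 higher at an unadjusted p under 0.05 in limma), a share near the 14.3% of all genes. Without control replicate 1 or 3 there were 2 lower, and without knockdown replicate 3 there were 0. It was HLA-DMA, a peptide exchange factor, at -0.38 ± 0.09 (adjusted p = 0.0119, and 0.0623 without knockdown replicate 3). HLA-DQB1 was at -0.34 ± 0.12 (adjusted p = 0.0672), and without control replicate 3 it fell by 0.44 (0.00379).

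Among transcription regulators of class I genes and components of interferon receptor signalling, 24 of 26 were measured, 4 fell and 1 rose, with a median of -0.03. These shares are near the 14.3% lower and 8.13% higher of all genes, and without control replicate 3 there were 4 lower and 2 higher. IRF9, the DNA-binding part of the factor activated by type I interferon, fell from 7.22 ± 0.18 to 6.55 ± 0.14 (SD, n = 3 each, limma adjusted p = 0.00255). IRF1, an activator of class I promoters, fell from 6.90 ± 0.19 to 6.36 ± 0.06 (0.00546). The interferon-gamma receptor chains IFNGR2 and IFNGR1 were at -0.37 ± 0.07 and -0.20 ± 0.06 (0.00421 and 0.0442), and the type I receptor chain IFNAR2 at 0.25 ± 0.08 (0.0477). IFNGR1 missed the threshold without control replicate 2 or any 1 knockdown array (0.0766 to 0.144), and IFNAR2 without control replicate 1 or 2 or any 1 knockdown array (0.0515 to 0.150). USF1, an E-box factor, was at 0.41 ± 0.13 and did not pass (0.0508). It passed without control replicate 1 or knockdown replicate 3 (0.0467 and 0.0416).

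Interferon-stimulated genes went both ways. Of 24 listed 16 were measured, 5 fell and 4 rose, against 14.3% and 8.13% of all genes, with a median of -0.13 (-0.125 in log2 units). The ubiquitin-like ISG15 was at -0.73 ± 0.06, IRF7 at -0.43 ± 0.08, IFIT3 at -0.61 ± 0.12 and IFI27 at -0.69 ± 0.16 (limma adjusted p = 4.14e-05, 0.00449, 0.00547 and 0.0123). The guanylate-binding protein gene GBP1 rose by 0.76, from a dim 3.63 ± 0.26 in control arrays (0.00308), and the tetherin gene BST2 rose by 0.42 (0.0113). IFI27 missed the threshold without knockdown replicate 2 (0.0592) and BST2 without knockdown replicate 1 (0.0566). Without knockdown replicate 1 there was 1 rise in place of 4, without knockdown replicate 2 there were 3 falls in place of 5, and without control replicate 3 there were 6 falls and 4 rises. OASL, at -0.28 ± 0.16, did not pass (0.254), and passed without control replicate 3 (0.0476).

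The genes most like the heavy chains in their profile over the 6 arrays were looked up as a description. The mean of the 5 heavy chain genes, each centred on its own mean, was 0.17, 0.21 and 0.16 in control and -0.19, -0.16 and -0.19 in knockdown arrays. Of all other genes tested, BIK (Pearson r = 0.999), ZBTB1 (0.999), GPRC5C (0.997), TMEM156 (0.997) and AKAP12 (0.997) followed it most closely over these 6 arrays. Their knockdown minus control differences were -0.67, -0.45, -0.23, -0.84 and -2.50 on the log2 scale. The arrays form 2 groups, which all of these genes separate, and no p is given.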

How the data were processed

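Total RNA (6 ug) of 6 SW480 samples was labelled with biotin and hybridised to one-colour Affymetrix arrays, per the labels' protocols. The values are the authors' deposited log2 signals, 1 per probe set and array. The log2 scale is read from their range of 1.29 to 13.68, and array medians of 4.20 to 4.25 show that arrays had been scaled. MAS5 is listed, per the submitters' processing notes, without a version or a step. As no step is tied to it, the summary method behind the printed signals is not settled. No detection calls were used. The number of arrays, 3 per group, limits the precision.

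Groups come from the sample titles. Genes come from the array's platform annotation, with symbols updated through Entrez identifiers to RefSeq (GRCh38.p14), and all 9 members matched. Of the probe sets other than 62 controls, 41091 had 1 gene, 1801 several and 11721 none, and no probe set of several genes held a member. The lowest 40% by mean (limit 3.6) were left out. The rest were fitted with limma 3.58.1 in R 4.3.3 (lmFit, eBayes with an intensity trend), two-sided, once per probe set (32759) and once per gene by its brightest single-gene set past the filter (14199). The fits were tested on simulated data. Errors are limma's standard errors unless marked SD.

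The members, the 5 other lists and the tests were chosen with earlier results of these data known. The motifs were searched on both strands, and the ISRE core and the share over all pairs of genes were added after the values were seen. Named were all members, PSMD10 and NFIL3, up to 6 called genes of smallest p and the largest uncalled change per list, and the 5 genes most correlated with the heavy chains. CALR and PDIA3 were named outside this rule, after their values were seen. Alternatives were other filters (none, the lowest 60%), variance settings, scalings, probe set summaries, a replicate block and the omission of each array.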

Additional observations from a re-analysis of the deposited data

How the results depend on the processing

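With each array left out in turn, 6 to 17 member probe sets fell (9 with all arrays), 6 to 16 of them heavy chains, 0 to 1 for B2M, TAP1, TAP2 and TAPBP, and 4 to 6 member genes fell (6 with all). Pairs of member genes without overlap ranged from 15 to 25 (14 with all). The highest counts of probe sets and of pairs came without control replicate 3. Over all probe sets the share called lower ran from 1.32% without knockdown replicate 3 to 12% without control replicate 3. Over all genes it ran from 7.54% to 16.6% in the same 2 omissions. PSMD10 stayed between -3.81 and -3.67 in these omissions. Over the same omissions peptide supply and loading partners had 0 to 4 falls and 0 to 1 rises, regulators 0 to 2 rises, class I-like genes 0 to 1 rises, class II genes 0 to 2 falls, and interferon-stimulated genes 3 to 6 falls and 1 to 4 rises.

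The other alternatives kept the counts of called members within 1.5 times. With no intensity trend, though, 4 member genes fell in place of 6, against 11.3% of all genes called lower in that setting. HLA-F and TAPBP missed the threshold there (limma adjusted p = 0.053 and 0.087). The same genes missed it with _x_at and _s_at sets avoided (limma adjusted p = 0.158 and 0.055). HLA-B, HLA-C and HLA-G have only _x_at sets, so that setting left them unchanged. TAPBP also missed the threshold with no filter or a robust prior (0.054 and 0.055). TAP1 passed with the lowest 60% left out or a robust prior (0.0424 and 0.0496). Over all genes the share called lower ran from 9.63% with no filter to 18.8% with the lowest 60% left out. The share called higher ran from 5.54% to 10.7% in the same settings. Shares with averaged or avoided probe sets were not computed. On probe sets, the HLA-F call on 221875_x_at was lost with no filter, no intensity trend, median centring or the replicate block (limma adjusted p = 0.0653, 0.0988, 0.0710 and 0.0683). The HLA-G call on 211529_x_at was lost with no intensity trend or the replicate block (0.0731 and 0.0503). Peptide supply and loading partners had 1 fall in place of 2 with no filter, quantile normalization, the replicate block or averaged probe sets. Rises among regulators went from 1 to 0 with no filter or with _x_at and _s_at sets avoided, and to 2 with no intensity trend, a robust prior or quantile normalization. The 1 rise among class I-like genes was lost (0) with no filter, median centring, the replicate block, or _x_at and _s_at sets avoided. Class II genes had 2 falls with no intensity trend. Interferon-stimulated genes had 3 falls with the lowest 60% left out, where IFI27 and a dimmer called gene lay below the filter and were not tested. Pairs without overlap numbered 23 with averaged probe sets. The cause of the other shifts was not tested. Signs turned for B2M 216231_s_at without control replicate 2 (range over the omissions -0.10 to 0.005), TAP2 204769_s_at without control replicate 3 (-0.12 to 0.078), TAPBP 210294_at without control replicate 3 or knockdown replicate 1 or 3 (-0.13 to 0.092) and TAP2 with averaged probe sets (0.11). None of these values passed.

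Same-numbered arrays correlated in their deviations by 0.05, 0.20 and 0.11, and each array correlated best with its own number, but not every pair exceeded 0.1, so the numbers were not taken as pairs. With the replicate block 7 member probe sets in place of 9 and 6 member genes fell. Over all probe sets the share called lower was 4.04% with the block and 6.54% without it. Over all genes it was 13.7% and 14.3%.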
